A study of Glycine max with 9 samples.

Results

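Root hair cells of soybean (Glycine max) titled 48h were compared with those titled 12h, at 3 libraries each. These are 6 of the 9 libraries of the series, picked by their titles with no use of a measured value. Both groups carry the genotype written as willam 82 in the labels and come from plants in an aeroponic system, where the roots hang in a nutrient mist. The labels give an age of 312 hours after sowing for the 48h cells and of 276 hours for the 12h cells, so that 36 hours separate the groups. No treatment is named for either group. The hour of the day at harvest, the light cycle and the number of plants behind a library were not given in the sources used here, so growth, age and hour of the day cannot be told apart. The labels do not say that the libraries of a group are from separate plants, and p-values therefore measure the spread between libraries, which may be technical.

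Root hairs are tubular outgrowths of single cells of the root epidermis. They enlarge the surface for uptake of water and minerals, and in legumes they are where the bacteria that form nodules usually enter. Plant cells also run a circadian clock. In its best known outline, worked out in Arabidopsis, the MYB-type factors CCA1 and LHY peak around dawn and repress evening genes. Among these are TOC1, GIGANTEA and the evening complex members ELF3 and LUX, and TOC1 represses CCA1 and LHY in turn.

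The deposited table gives FPKM, fragments scaled to transcript length and to the mapped fragments of the library, for 56044 gene IDs. The 30637 IDs with at least 1 FPKM in 3 or more of the 6 libraries were tested. No ID could be paired with a gene name (0 matched), so markers of root hairs or of other cell types could not be looked up. Loci are called below by the names under which they were published. The only check made of these names was whether RefSeq (Glycine_max_v4.0) lists a gene so named on the chromosome that the ID carries. It does for all 4 LHY loci, for 6 of 7 evening loci, for 6 of 10 nodulation loci and for all 6 photoperiod and 13 isoflavonoid loci. It does not for the TOC1 locus Glyma.04G166300, the NFR1 locus Glyma.02G270800 and 3 of the 4 NIN loci, whose names are therefore unchecked, and the reference loci were not looked up. Other IDs have no name here, and only a few are printed.

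The 48h libraries resembled each other far more than the 12h libraries did. Pearson correlations across the tested genes ran from 0.967 to 0.970 among 48h libraries and from 0.777 to 0.883 among 12h libraries, with 0.851 to 0.954 between the groups. 12h replicate 1 correlated with the 48h libraries at 0.946 to 0.954, above its correlations of 0.865 and 0.883 with the other 12h libraries. On the log2(FPKM + 1) scale the SD of a gene had a median of 0.170 at 48h and 0.624 at 12h (n = 3 each), and the SD was larger at 12h for 93.0% of tested genes. In its composition 12h replicate 2 stood apart. The 100 highest genes held 22.5% to 28.0% of all FPKM in the 48h libraries, but 53.6% in 12h replicate 2, with 24.0% and 28.1% in the other 12h libraries. Median-of-ratios factors were 1.14 to 1.22 in the 48h libraries, 0.575 in 12h replicate 2 and 0.948 and 1.12 in the other 12h libraries. After scaling, pairs of 48h libraries differed by a median of 0.185 to 0.199 per gene on the log2 scale, and 12h replicates 1 and 3, the pair without replicate 2, by 0.457. Depth is unknown, because read totals are not part of FPKM values. Results are given as deposited and also scaled by median-of-ratios factors, which set the libraries to a common level over the genes above 0 in all 6.

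As deposited, 64 genes rose and 7 fell at 48h relative to 12h (limma, Benjamini-Hochberg adjusted p under 0.05), 0.209% and 0.0228% of the 30637 tested. After scaling, 19 rose and 2 fell (0.0620% and 0.00653%). All 21 of these were among the 71 called as deposited, which is 100% of the scaled calls and 29.6% of the others. All 71 kept their direction after scaling, and in all 71 the 48h and 12h libraries did not overlap on either scale. The balance of rises and falls depended on the scale. Over all tested genes the median log2 fold change as deposited was 0.35 and became -0.02 with scaling, and at an unadjusted p under 0.05 (limma) there were 2326 higher (7.59%) and 427 lower genes (1.39%) as deposited, but 1008 (3.29%) and 1137 (3.71%) after scaling. Likewise, the groups did not overlap for 22.2% of tested genes as deposited, 6122 higher at 48h (19.98%) and 671 lower (2.19%), and for 15.9% after scaling, 2457 higher (8.02%) and 2410 lower (7.87%). Genes move together by library, and how unusual such shares are was not tested.

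**Figure D1:**
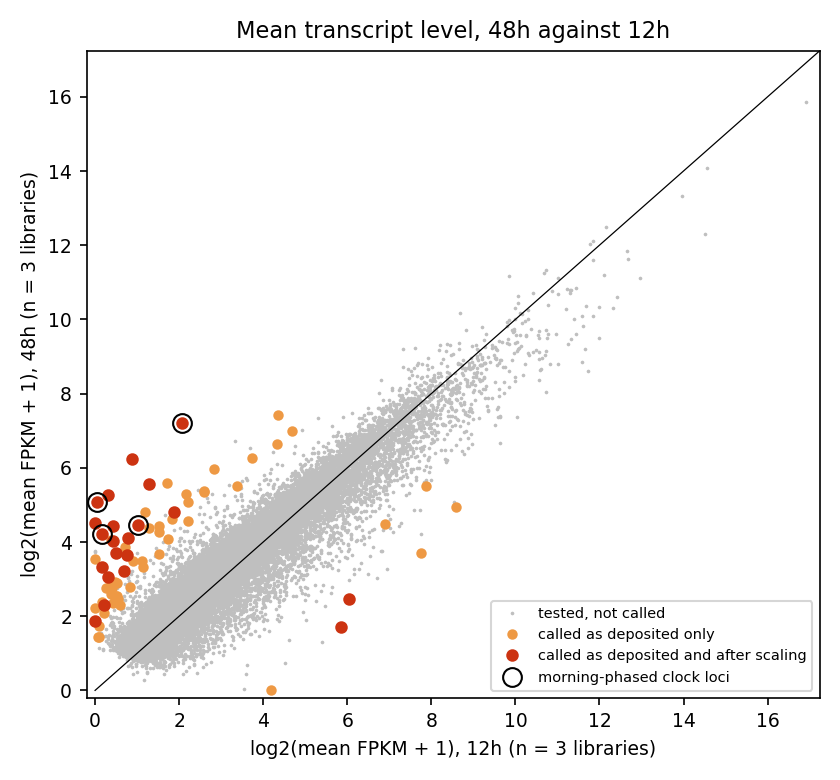
Mean level of each of the 30637 tested genes at 48h (vertical) against 12h (horizontal), as log2(mean FPKM + 1) over 3 libraries each, with the line of equal level. Most of the 64 genes called higher at 48h lie near the left edge, at low 12h levels, and the 7 called lower lie below the line.

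Among the lists of named loci, only that of the 4 LHY loci held called genes. All 4 rose, as deposited and after scaling, where 0.209% and 0.0620% of all tested genes were called higher. Of the 4, 2 (Glyma.03G261800 and Glyma.19G260900) were under 1 FPKM in every 12h library, so they passed the filter only through the 48h libraries and could only be higher there. The median log2 fold change of the 4 was 4.47 as deposited and 4.20 after scaling. That these loci are higher at 48h was known from earlier results on these libraries when the list was taken up. At Glyma.16G017400 the 48h libraries had 199, 127 and 112 FPKM, against 2.47, 3.13 and 4.05 FPKM in the 12h libraries. It was the most abundant LHY locus at 48h, and its lowest 48h library was far above its highest 12h library. Its log2 fold change was 5.09 ± 0.37 (SE; limma adjusted p = 0.000881) as deposited and 4.65 ± 0.36 (SE; limma adjusted p = 0.0167) after scaling.

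Glyma.03G261800 had 50.4, 21.3 and 27.7 FPKM in the 48h libraries versus 0.0370, 0 and 0.0692 FPKM in the 12h libraries. Glyma.19G260900 had 24.6, 11.3 and 16.8 FPKM at 48h versus 0.0574, 0.0514 and 0.257 FPKM at 12h. These 2 loci were close to 0 in every 12h library, so that their fold changes depend on the pseudocount. On the log2(FPKM + 1) scale the changes were 4.95 for Glyma.03G261800 (limma adjusted p = 0.00101) and 3.99 for Glyma.19G260900 (limma adjusted p = 0.00248). Glyma.07G048500 had 25.6, 20.3 and 16.999 FPKM at 48h versus 0.669, 0.922 and 1.48 FPKM at 12h. Its log2 fold change was 3.44 ± 0.36 (SE; limma adjusted p = 0.00444). After scaling the limma adjusted p of these 3 loci was between 0.0154 and 0.0293.

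Within the 48h group the LHY loci did not vary alike. 48h replicate 1 was the highest at all 4, and 48h replicate 2 was the lowest at Glyma.03G261800 and Glyma.19G260900 but not at the other two. Without 12h replicate 1, 0 of the 4 loci passed as deposited, with limma adjusted p-values of 0.0536 for Glyma.16G017400, 0.0779 for Glyma.03G261800 and 0.0950 for the others. The log2 fold changes moved little, to 4.96 for Glyma.16G017400, 4.95 for Glyma.03G261800, 3.95 for Glyma.19G260900 and 3.31 for Glyma.07G048500. Each of the 4 passed in the other 16 of 17 alternatives to the as-deposited fit, with the sign kept in 17. These 17 include median-of-ratios scaling, quantile normalization and the replicate block. The calls after scaling were less stable. All 4 loci passed in 1 of 9 alternatives of the scaled fit, without 12h replicate 2, and 2 of 4 passed without 48h replicate 2. In the other 7 alternatives 0 of 4 passed, namely with the replicate block, array weights or all 9 libraries, and without 48h replicate 1, 48h replicate 3, 12h replicate 1 or 12h replicate 3 (limma adjusted p 0.0505 to 0.397). The scaled log2 fold change of Glyma.16G017400 stayed between 4.36 and 4.90 over the 9 alternatives, and that of Glyma.07G048500 between 2.83 and 3.26.

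**Figure D2:**
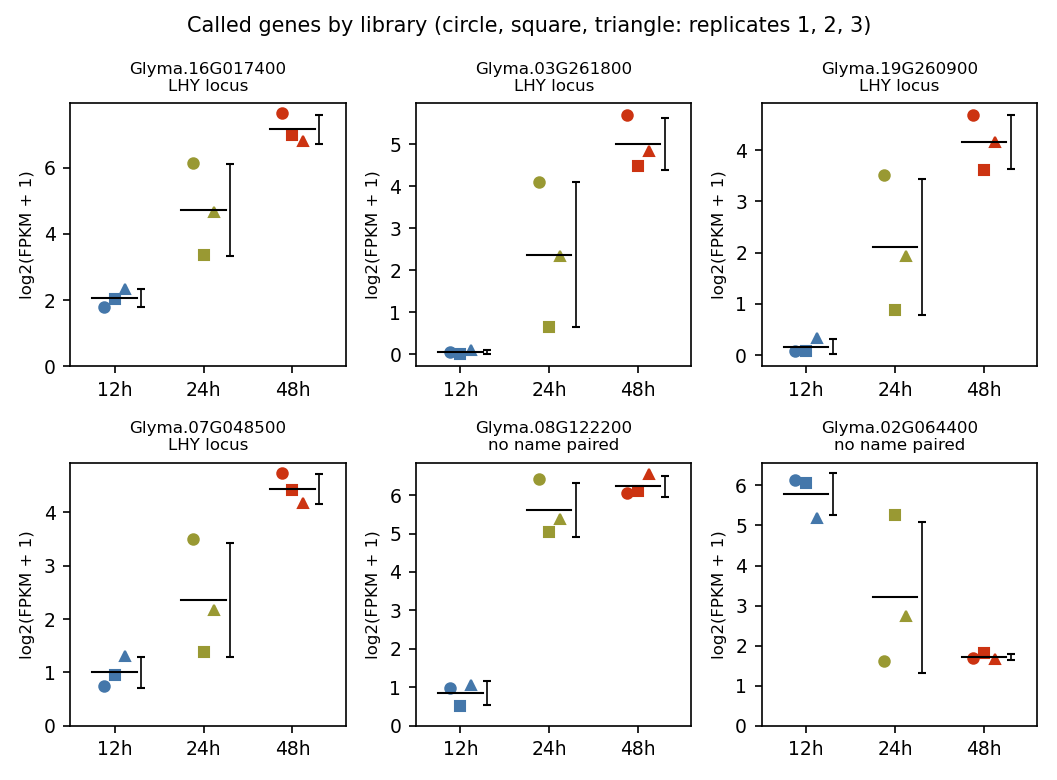
Level of 4 LHY loci and 2 unnamed called genes in each library, as log2(FPKM + 1), with the group mean (line) and SD (bar, n = 3). For every gene shown the 48h libraries are clear of the 12h libraries. The 24h libraries lie between the groups at the LHY loci, whereas 24h replicate 1 lies within the 48h range at Glyma.08G122200 and below it at Glyma.02G064400.

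Glyma.08G122200, for which no name was paired, had the largest log2 fold change of the called genes. It had 65.2, 67.4 and 92.2 FPKM in the 48h libraries versus 0.963, 0.414 and 1.10 FPKM in the 12h libraries. The groups are far apart, with little spread at 48h. Its log2 fold change was 5.38 ± 0.36 (SE; limma adjusted p = 0.000743) as deposited and 5.06 ± 0.25 (SE; limma adjusted p = 0.00635) after scaling. It passed in 17 of 17 alternatives to the as-deposited fit, with limma adjusted p-values up to 0.0461. Of the alternatives of the scaled fit it passed in 4 of 9, with limma adjusted p-values up to 0.0910.

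Most of the 64 genes that rose were nearly silent at 12h. Their median level was 12.7 FPKM at 48h and 0.561 FPKM at 12h, while over all tested genes the medians were 6.92 FPKM at 48h and 5.66 FPKM at 12h. Of the 64, 35 (54.7%) were under 1 FPKM in all 12h libraries, as were 357 (1.17%) of all tested genes, and 4 were listed at 0 in all of them. Those 357 genes passed the filter through the 48h libraries alone, so they had to be higher at 48h, whereas only 29 genes passed through the 12h libraries alone. The log2(FPKM + 1) scale also narrows the spread between libraries near 0, and with a pseudocount of 0.1 the genes called higher were 42. How far the scale shapes this group was not tested. At 48h the rising genes spanned means of 1.71 to 170 FPKM, and 30 of them had 10 FPKM or more in all 48h libraries. Their log2 fold changes were 1.35 to 5.38 as deposited, with a median of 2.595, and 1.16 to 5.06 after scaling, with a median of 2.30. In 44 of the 64 (68.8%) the lowest 48h library was replicate 2, which was so for 30.6% of all tested genes.

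The 7 genes that fell were well expressed at 12h, and falls as large as theirs on the log2(FPKM + 1) scale are not possible from levels near 0. Their means ran from 0 to 44.4 FPKM at 48h and from 17.3 to 385 FPKM at 12h. Glyma.02G064400 had 2.22, 2.50 and 2.15 FPKM in the 48h libraries versus 69.4, 65.5 and 35.4 FPKM in the 12h libraries. Its 48h level was low and even, and its log2 fold change was -4.08 ± 0.38 (SE; limma adjusted p = 0.00248), with a limma adjusted p of 0.0274 after scaling. It passed in 16 of 17 alternatives to the as-deposited fit, and not without 12h replicate 1, where the log2 fold change was -3.90 (limma adjusted p = 0.0950). After scaling it passed in 2 of 9, with log2 fold changes of -4.86 to -4.12 over the 9. Glyma.06G102200 was listed at 0 in all 48h libraries, whereas 12h libraries had 9.38, 25.4 and 17.3 FPKM (limma adjusted p = 0.00277). It thus passed the filter only through the 12h libraries and could only be lower at 48h. The gene had 0, 49.3 and 0 FPKM in 24h replicates 1, 2 and 3. It was the only tested gene listed at 0 in all 48h libraries, and a listed 0 can be a failed estimate. After scaling it did not pass (limma adjusted p = 0.0818).

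Of the 7 falling genes, 3 lie within 4 successive IDs on chromosome 2, a group singled out after its values were seen. The ID 1 place before Glyma.02G064400 had 3.90, 4.43 and 5.26 FPKM at 48h versus 73.6, 72.4 and 47.7 FPKM at 12h. The ID 3 places before it had 9.49, 13.03 and 13.9 FPKM at 48h versus 284, 251 and 107 FPKM at 12h. All 3 were thus lower in every 48h library than in every 12h library, as were all 7 falling genes. The ID that lies among them, 2 places before, did not share the fall, with means of 2.30 FPKM at 48h and 2.55 FPKM at 12h (limma adjusted p = 0.898). The next ID after Glyma.02G064400 had means of 32.5 FPKM (48h) and 22.1 FPKM (12h) (limma adjusted p = 0.582). Whether the 3 are near-identical copies, which would make their separate values uncertain, was not tested. Of the 64 rising genes, 4 had another within 1000 in the number of the ID, which is 10 places in the ordering.

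The 24h libraries, from plants 288 hours after sowing, took no part in the test and differed among themselves at these genes. In 24h replicate 1, 62 of the 64 rising genes were above every 12h library and 37 had reached the lowest 48h library. In 24h replicate 3 the numbers were 59 and 15, and in 24h replicate 2 they were 53 and 5. The median gap of the rising genes to the 12h mean was 2.52, 0.85 and 1.72 on the log2 scale in 24h replicates 1, 2 and 3, while that of all tested genes was 0.22, 0.16 and -0.15. The falling genes also divided the 24h libraries. All 7 were below every 12h library in 24h replicates 1 and 3, but only 1 was in 24h replicate 2. At Glyma.02G064400 the 24h libraries had 2.04, 37.6 and 5.64 FPKM, and at Glyma.16G017400 they had 69.8, 9.33 and 24.1 FPKM. The 24h mean lay between the 12h and 48h means for 56 of the 64 and above the 48h mean for 8. Choosing genes by the distance between 12h and 48h favours this pattern. The same choice favours 24h libraries that lie beyond the 12h libraries at these genes.

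**Figure D3:**
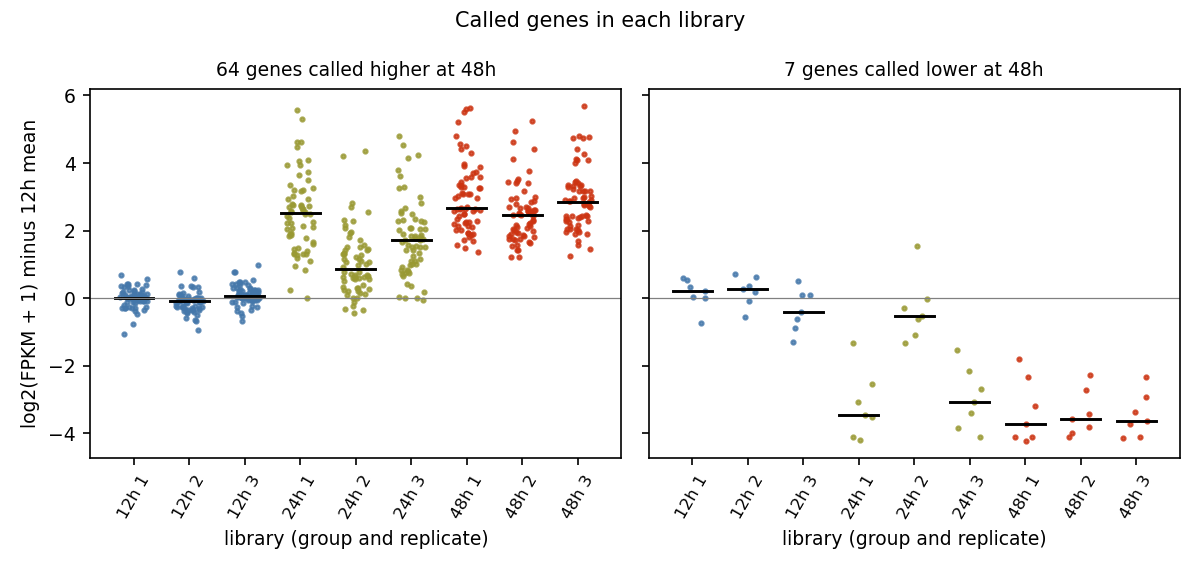
Level of the 64 genes called higher and the 7 called lower at 48h in each of the 9 libraries, as log2(FPKM + 1) minus the 12h mean of the gene. Points are genes and lines are medians, and 24h replicate 2 lies nearest to the 12h libraries in both panels.

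The evening-phased loci gave no call, with 0 of 7 passing on either scale (limma adjusted p 0.243 to 0.976 as deposited and 0.115 to 0.945 after scaling). Their median log2 fold change was -1.04 as deposited and -1.31 after scaling, against 0.35 and -0.02 over all tested genes, and 5 of 7 values were below 0 as deposited and 7 of 7 after scaling. As deposited the median shrank to -0.59 or -0.52 when 12h replicate 1 or 3 was left out, and was -0.16 over the loci left by a filter at 5 FPKM. Only the LUX loci separated the groups as deposited. Glyma.11G136600 had 1.68, 2.01 and 2.12 FPKM in the 48h libraries versus 8.16, 5.59 and 4.14 FPKM in the 12h libraries. Glyma.12G060200 had 0.490, 0.559 and 0.351 FPKM at 48h versus 2.99, 1.62 and 2.04 FPKM at 12h. At both loci every 48h library was below every 12h library, as for 2.19% of all tested genes. Their log2 fold changes of -1.21 and -1.11 had limma adjusted p-values of 0.459 and 0.243.

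At the ELF3 locus Glyma.04G050200 the 48h libraries had 9.41, 6.57 and 5.89 FPKM, against 32.6, 6.90 and 45.3 FPKM in the 12h libraries. 12h replicate 2 lay within the 48h range as deposited, and at 12.0 FPKM it lay above all 48h libraries (5.17 to 7.86 FPKM) after scaling (log2 fold change -1.93, limma adjusted p = 0.485). The GIGANTEA locus Glyma.20G170000 had 1.59, 3.97 and 1.71 FPKM at 48h versus 11.4, 0.788 and 12.6 FPKM at 12h. Here 12h replicate 2 was the lowest of the 6 libraries as deposited, though not after scaling (1.37 FPKM, with 1.33 FPKM in 48h replicate 1). At the other GIGANTEA locus, Glyma.10G221500, the 48h libraries had 7.88, 17.6 and 10.8 FPKM, against 18.99, 1.67 and 31.8 FPKM at 12h. Replicate 2 was again the lowest 12h library, as it was for 64.7% of all tested genes. The TOC1 loci overlapped as deposited, with means of 8.73 ± 1.85 FPKM (48h) and 12.0 ± 4.35 FPKM (12h) for Glyma.06G196200, and 7.13 ± 0.883 FPKM (48h) and 6.85 ± 3.70 FPKM (12h) for Glyma.04G166300 (SD, n = 3 each). After scaling 4 of the 7 loci were lower in every 48h library than in every 12h library, as for 7.87% of all tested genes.

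**Figure D4:**
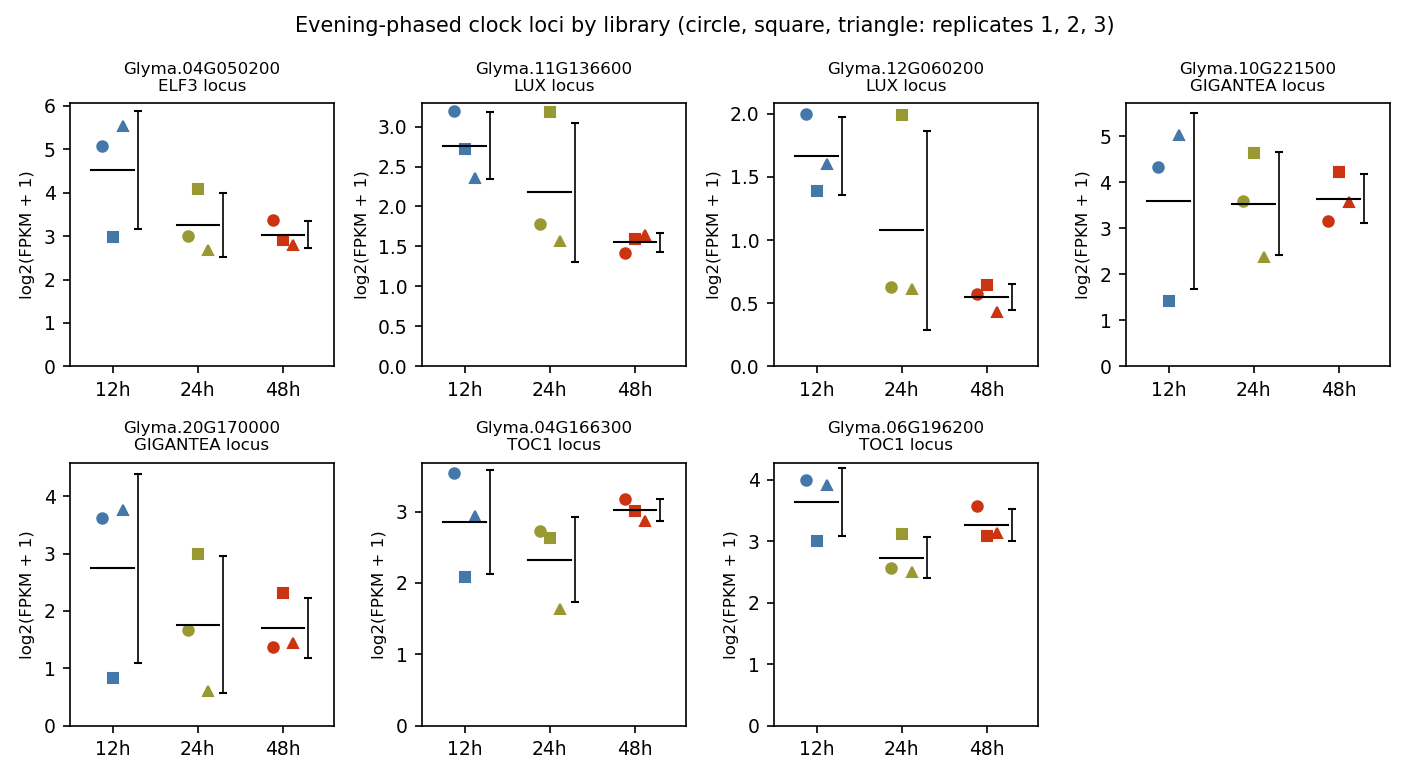
Level of the 7 evening-phased clock loci in each library, as log2(FPKM + 1), with the group mean (line) and SD (bar, n = 3). The 48h libraries spread most at the GIGANTEA loci. Among the 12h libraries, replicate 2 (square) is the lowest at 6 of the 7 loci, as it is for 64.7% of all tested genes.

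Loci of the photoperiod pathway, which in leaves ties flowering to day length, were mostly low. The flowering loci E1, FT2a and FT5a (Glyma.06G207800, Glyma.16G150700 and Glyma.16G044100) were under 0.1 FPKM in all 6 libraries and were not tested. Of the 3 tested loci 0 passed (limma adjusted p 0.548 to 0.828). The phytochrome A locus E4, Glyma.20G090000, encodes a light receptor and had 16.2, 17.2 and 20.5 FPKM in the 48h libraries versus 11.4, 3.31 and 10.01 FPKM in the 12h libraries. The lowest 48h library exceeded the highest 12h library, as for 19.98% of all tested genes, and still so after scaling, as for 8.02%. Its log2 fold change of 1.17 (limma adjusted p = 0.548) was 0.75 after scaling. The phytochrome A locus E3, Glyma.19G224200, had 2.03 ± 0.592 FPKM (48h) and 1.33 ± 0.807 FPKM (12h) (SD, n = 3 each). The pseudo-response regulator locus Glyma.12G073900, published as PRR3, a relative of TOC1, had 8.42, 11.3 and 3.52 FPKM at 48h versus 13.9, 1.76 and 24.7 FPKM at 12h. Its 12h libraries enclosed the 48h range. Replicate 2 was again the lowest 12h library, as for 64.7% of all tested genes.

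Isoflavonoids are soybean root compounds that act as signals to nodule bacteria and in defence, made from chalcones. Of 13 loci for this pathway 10 were tested and 0 passed (limma adjusted p 0.548 to 0.847), with a median log2 fold change of -0.31 as deposited, -0.70 after scaling and -0.01 as deposited without 12h replicate 3. The most abundant chalcone synthase locus, Glyma.01G228700, whose enzyme makes the first chalcone of the pathway, had 451, 543 and 500.2 FPKM in the 48h libraries versus 630, 667 and 902 FPKM in the 12h libraries. The groups did not overlap, with a log2 fold change of -0.54 (limma adjusted p = 0.610) that was -1.02 after scaling (limma adjusted p = 0.739). Glyma.11G011500, the other abundant chalcone synthase locus, had 309 ± 10.3 FPKM (48h) and 410.3 ± 168 FPKM (12h) (SD, n = 3 each), with overlap as deposited. After scaling its groups separated too, with 248 to 276 FPKM at 48h versus 331 to 628 FPKM at 12h (log2 fold change -0.81, limma adjusted p = 0.757). In all, 4 of the 10 tested loci were lower in every 48h library after scaling, as for 7.87% of all tested genes. As deposited 2 of 10 were lower in every 48h library, as for 2.19%, and 2 of 10 higher, as for 19.98%. After scaling 0 of 10 were higher in every 48h library, against 8.02% of all tested genes.

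Chalcone isomerase closes the ring of the flavonoid skeleton. Its locus Glyma.20G241600 had 50.3, 57.1 and 47.1 FPKM at 48h versus 35.9, 25.7 and 28.1 FPKM at 12h, without overlap. This separation was lost after scaling, and the log2 fold change of 0.77 became 0.30. Glyma.20G241500 had 293 ± 21.1 FPKM (48h) and 386 ± 194 FPKM (12h) (SD, n = 3 each). Isoflavone synthase commits the pathway to isoflavones. Its locus Glyma.13G173500 had 48.4, 48.2 and 53.5 FPKM at 48h versus 59.7, 49.5 and 278 FPKM at 12h, with 12h replicate 3 far above the others. After scaling every 48h library (39.6 to 47.0 FPKM) was below every 12h library (53.5 to 293 FPKM), with a log2 fold change of -1.37 (limma adjusted p = 0.721). The other isoflavone synthase locus, Glyma.07G202300, had 176, 183 and 267 FPKM at 48h versus 183, 117 and 150.1 FPKM at 12h, with overlap.

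Among 10 nodulation loci, the 4 published as leghemoglobin genes, the oxygen carriers of nodules, had a listed value of 0 in all 6 libraries, and 2 loci were tested. These are published as genes for the receptors of the bacterial Nod factor. The NFR1 locus Glyma.02G270800 had 22.3, 31.5 and 24.1 FPKM in the 48h libraries versus 21.9, 16.3 and 10.1 FPKM in 12h libraries (limma adjusted p = 0.558). The lowest 48h library exceeded the highest 12h library, as for 19.98% of all tested genes, and no longer so after scaling. The NFR5 locus Glyma.11G063100 had 22.9, 33.1 and 27.2 FPKM at 48h versus 31.8, 19.3 and 8.83 FPKM at 12h (limma adjusted p = 0.610). Both receptors had their lowest value in 12h replicate 3. The 4 loci published as NIN, a transcription factor of nodule initiation, were at most 1.14 FPKM in any of the 6 libraries and stayed below the filter.

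The 7 loci in common use as reference genes show how far scaling alone moves a level. Their log2 fold changes were all above 0 as deposited, with a median of 0.49, and 4 above and 3 below 0 after scaling, with a median of 0.02. None of the 7 passed with limma (0 of 7 on either scale, and 0 of 7 at an unadjusted p under 0.05 as deposited). Glyma.20G141600 had 397, 414 and 460 FPKM at 48h versus 289, 252 and 235 FPKM at 12h, a separation of the groups as deposited that was lost after scaling. Glyma.12G051100 had 96.7, 103 and 92.6 FPKM at 48h versus 79.5, 33.6 and 66.9 FPKM at 12h, and was the only reference locus whose groups did not overlap on both scales. Of the 7 loci, 2 were higher in every 48h library as deposited, as for 19.98% of all tested genes. After scaling 1 of 7 was, as for 8.02%.

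How many genes were called depended on single libraries. As deposited, the 71 calls became 36, 34 and 34 when 48h replicate 1, 2 or 3 was left out, and 2, 24 and 60 when 12h replicate 1, 2 or 3 was. The 2 genes that remained without 12h replicate 1 were Glyma.08G122200 and Glyma.06G102200. After scaling, the 21 calls became 0, 5 and 0 when 48h replicate 1, 2 or 3 was left out, and 0, 25 and 9 when 12h replicate 1, 2 or 3 was. Of the 21, 16 were among the 25 called without 12h replicate 2, including all 4 LHY loci, of which 0 were among the 9 called without 12h replicate 3 and 2 among the 5 called without 48h replicate 2. Where 0 genes were called (limma), 965 to 3948 had an unadjusted p under 0.05.

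**Figure D5:**
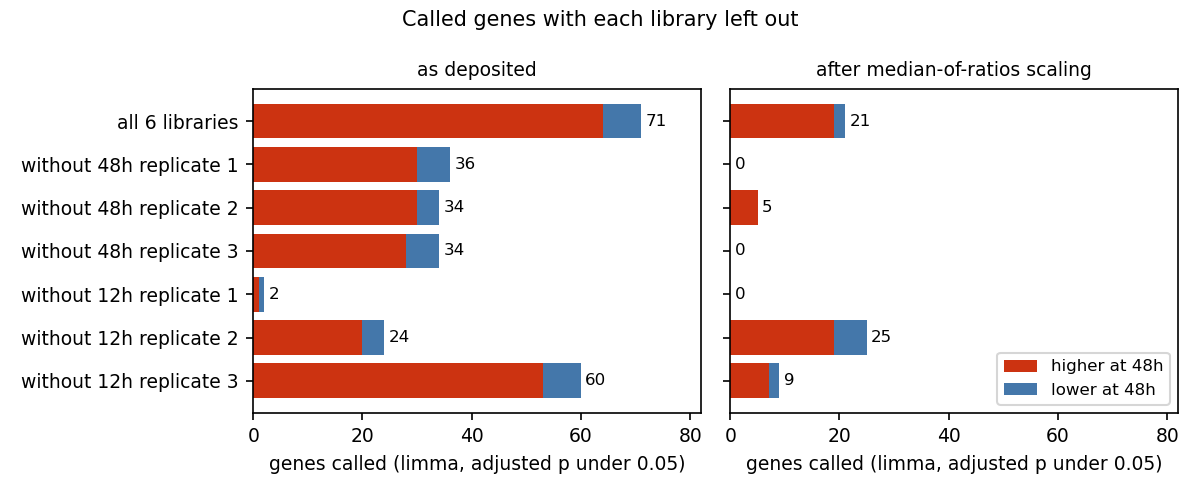
Number of genes called higher (red) and lower (blue) at 48h with all 6 libraries and with each library left out, as deposited (left) and after median-of-ratios scaling (right). Leaving out 12h replicate 1 gives the fewest calls as deposited, 2 genes.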

How the data were processed

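Messenger RNA of soybean root hair cells was measured by sequencing TruSeq libraries, per the labels' protocols. The authors deposited FPKM values in 1 table for 9 libraries, made with tools that include TopHat2 2.1.0 and Cufflinks 2.2.1, per the submitters' processing notes. Neither a genome build nor an annotation was given in the sources used here. The name of the table refers to tissue culture and the labels to root hair cells, and the labels were followed. Whole reads could not be recovered: among values under 0.2 FPKM, 0.809% to 2.55% of genes fell in the most common ratio bin (1% wide) over 15 pairs of libraries. Depth is therefore unknown.

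Genes with at least 1 FPKM in 3 or more of the 6 libraries of 48h and 12h were tested with limma 3.58.1 (R 4.3.3), a moderated test with an intensity trend on log2(FPKM + 1) over these 6 libraries alone, with 6.33 prior degrees of freedom and Benjamini-Hochberg adjustment over all tested genes. Fold changes are 48h minus 12h on that scale, which understates low genes. The same genes were tested after median-of-ratios scaling, with factors from 36228 genes. Same-numbered libraries were not shown to be pairs.

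Members and lists were chosen with earlier results of these data known. By the rule for names, called genes without overlap whose mean in a group reached 5 FPKM were printed by the size of the change, 2 per direction because no ID has a name (the next LHY loci are printed as list members), beside the members of the lists by ID. The photoperiod and isoflavonoid lists were written from published locus names. Lists defined by words in descriptions, cell type markers among them, could not be used.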

Additional observations from a re-analysis of the deposited data

How the results depend on the processing

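With all 6 libraries 71 of 30637 tested genes were called as deposited. A pseudocount of 0.1 gave 46, scaling by median-of-ratios 21 and quantile normalization 28, each over the same tested genes. Leaving out the filter gave 14 of 45318 tested genes, and raising it to 5 FPKM gave 44 of 18331. The replicate block, which takes the M number as a term, gave 295 genes, 213 higher and 82 lower, among them all 71. Leaving out 1 library gave 2 to 60. After scaling, the count of 21 became 0 with the replicate block (1585 at an unadjusted p under 0.05, limma), 0 with array weights (2320 at an unadjusted p under 0.05, limma) and 3 with all 9 libraries in one fit, and leaving out 1 library gave 0 to 25. The count of 6793 genes without overlap, of 30637 tested, was 3815 of 18331 tested under the filter at 5 FPKM. With 1 library left out it was 8053 to 13549, and removing a library can only raise this count. A pseudocount of 0.25, robust moderation, no intensity trend, array weights and all 9 libraries gave 52, 87, 55, 102 and 55 genes as deposited. The numbers were not taken to pair the libraries, since the deviations of same-numbered libraries from their group means had correlations of 0.00689, 0.0458 and -0.0842 across genes, and each 48h library correlated best with a 12h library of another number. None of the 7 called genes named changed direction in the 17 alternatives to the as-deposited fit. The median log2 fold change of the reference loci was 0.24 and that of the photoperiod loci 0.10 without 12h replicate 2, and that of the nodulation loci 0.28 without 12h replicate 3. Glyma.06G102200 did not pass with no filter, after scaling or with all 9 libraries (limma adjusted p up to 0.327). The cause of the changes in calls and in fold changes was not tested, and unknown depth limits the low genes most.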

Other observations

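The genes that rose were spread over the genome as far as IDs show it. All 20 chromosomes carried between 1 and 8 of the 64, with the most on chromosome 8 (8 of 2155 tested) and chromosome 10 (6 of 1691), and the unplaced sequences carried 0 of 156. The 7 that fell lay on chromosomes 2, 6, 11, 12 and 16, with 3 on chromosome 2.

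Large changes were less even at 12h among the lower genes. A log2 fold change of 2 or more was found for 129 genes as deposited, of which 54 were called, and one of -2 or less for 50 genes, of which 7 were called. The median SD over the 12h libraries was 0.59 for the 129 and 1.23 for the 50 on the log2 scale (n = 3). Of the 50, 24 were highest in 12h replicate 2, 23 in 12h replicate 3 and 3 in 12h replicate 1. After scaling 79 genes reached 2 or more and 125 reached -2 or less.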
